A study of Mus musculus with 56 samples.

Results

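Kidneys collected at lights-on, zeitgeber time (ZT) 0 and ZT24, were compared between mice given food by day only (daytime-restricted feeding, DRF) and mice given food by night only (nighttime-restricted feeding, NRF). The libraries were chosen by regimen and clock time alone, which gave 8 DRF and 8 NRF libraries, 16 of 56 in the series. Each regimen held 4 libraries at ZT0 and 4 at ZT24, 24 h apart on the same clock time. All groups were C57BL/6J females, 9 weeks of age, kept on 12 h of light and 12 h of dark, and all had been on their regimen for 7 days with normal chow. Neither group was fed ad libitum, so that both differ from free feeding, and the hours of food access are not stated in the sources used here beyond day and night. The poly(A) RNA of the whole organ was sequenced, so fewer cells of a type and less RNA per cell cannot be told apart. The NRF ZT24 group holds 1 library whose column carried a number that matched no sample title. Below, "unnumbered" marks this library.

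At lights-on a mouse fed at night has come to the end of its feeding period, whereas one fed by day has gone through the dark phase without food. In fasting, mammalian tissues turn from glucose to fatty acids: the nuclear receptor PPARA drives genes of fatty acid oxidation and ketone body synthesis, while the sterol- and insulin-sensing SREBP factors, which drive lipid synthesis, become less active. The kidney has a circadian clock of its own, in which BMAL1 (Arntl) and CLOCK drive the Per, Cry, Nr1d and Dbp genes. Its proximal tubule covers much of its energy use from fatty acids.

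Expression is given as TPM, a read count scaled for gene length and library size, recovered from the deposited values and kept at their own scaling. Differences are DRF minus NRF on the log2(TPM + 1) scale, averaged over ZT0 and ZT24, with the standard error (SE) from limma. A gene was called when its Benjamini-Hochberg adjusted p was under 0.05 at ZT0 and at ZT24 separately with the same sign. Because the + 1 shrinks the change of genes at low levels, the differences of such genes are understated.

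Of 12782 genes tested, 1499 (11.7%) were called on both days. DRF kidneys had higher levels of 777 genes (6.08%) and lower levels of 722 (5.65%). For 484 of the higher and 419 of the lower genes the 8 DRF and 8 NRF libraries did not overlap at all, against 588 (4.6%) and 509 (3.98%) of all genes tested with no overlap in that direction, called or not. Most of the differences were small: 137 of the higher and 99 of the lower genes reached 1.5-fold, and 27 and 18 reached 2-fold. Leaving out the 2 libraries that correlated least with the rest, NRF ZT0 replicate 1 and DRF ZT0 replicate 2, left 1139 genes called, 1112 of them among the 1499.

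Both days gave like answers from separate libraries. At ZT0 alone 2729 genes (21.4%) passed, of which 2665 had the same sign at ZT24, and at ZT24 alone 2233 (17.5%), of which 2210 had the same sign at ZT0. No gene passed on both days with opposite signs. Across the 12782 genes, which are not independent of each other, the ZT0 and ZT24 differences had a Pearson r of 0.749. A direct limma test of the ZT24 difference against the ZT0 difference passed for 0 genes after adjustment, with 427 at an unadjusted p under 0.05 (441 and 427 with rescaling by median ratios and with limma-voom, again 0 adjusted).

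**Figure D1:**
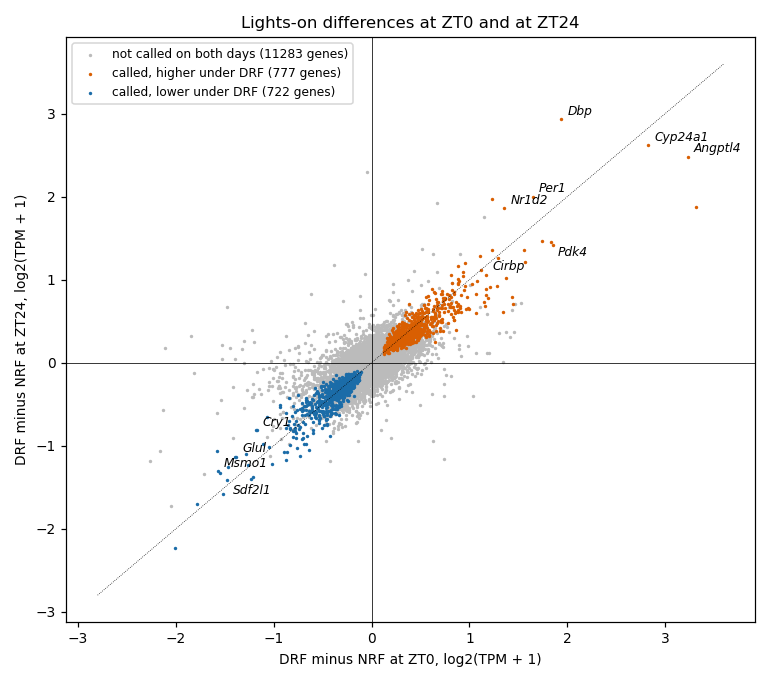
DRF minus NRF at ZT0 (x axis) and at ZT24 (y axis), both in log2(TPM + 1), for the 12782 genes tested. Colored points are the 777 genes called higher and the 722 called lower under DRF. The called genes lie at the lower left and the upper right, as the rule of 1 sign on both days sets, with Angptl4 among the points farthest to the upper right.

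The tissue was kidney by its markers in all 16 libraries. The 10 proximal tubule markers summed to 62533 to 154350 TPM and none of them was called. Most of that sum was 1 marker, Kap, at 52967 to 145430 TPM. The parts of the organ sampled varied. The summed level of 8 medullary markers ranged from 326 to 784 TPM under DRF and from 503 to 1454 under NRF, with 0 of 8 called. Collecting duct markers summed to 888 to 1283 TPM under DRF and 988 to 1442 under NRF, with 1 of 7 called higher and 1, Avpr2, lower. Glomerular markers summed to 579 to 690 TPM under DRF and 674 to 797 under NRF, with 0 of 7 called. Adipose markers ranged from 29.9 to 245 TPM under DRF and from 32.3 to 773 TPM under NRF, with the highest sum in NRF ZT0 replicate 1. Liver markers, at 359.6 to 650.2 and 368.9 to 942 TPM, had 1 of 9 called higher. Blood markers ranged over 1889 to 5558 TPM under DRF and 1082 to 6118 under NRF. The part of these mixtures in the differences between regimens was not tested.

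The largest rises under DRF included genes of fuel use, of the clock and of vitamin D metabolism. Angptl4, a secreted inhibitor of lipoprotein lipase, lay at 33.2 to 72.0 TPM (median 38.9) in the DRF libraries and at 3.05 to 9.67 TPM (median 4.91) in the NRF libraries. All 8 DRF kidneys were thus above all 8 NRF kidneys, and the difference was 2.86 ± 0.29 (SE; adjusted p 1.24e-07 at ZT0 and 2.25e-05 at ZT24), or 7.23-fold. Pdk4, the kinase that shuts off pyruvate dehydrogenase and so spares glucose, was at 67.7 to 144 TPM (median 76.0) against 21.3 to 41.1 TPM (median 24.5), a difference of 1.64 ± 0.23 (adjusted p 3.3e-05 and 0.000908). Slc25a25, a mitochondrial carrier of ATP-Mg and phosphate whose reads overlap those of Naif1, rose by 1.45 ± 0.22 from a median of 34.7 to 101 TPM. Vnn1, a pantetheinase that releases pantothenate and cysteamine, rose by 1.10 ± 0.11 from a median of 120 to 259 TPM, and Lgals4, which encodes a galectin, by 1.39 ± 0.12 from 13.2 to 39.5 TPM. None of these overlapped between regimens, as the choice of the largest rises required. Rasd1, a small GTPase named for its response to dexamethasone, rose by 1.06 ± 0.19 from a median of 7.76 to 17.6 TPM. Without NRF ZT24 replicate 2 its call was lost, at 1.02 with the larger adjusted p at 0.0506.

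The falls covered genes of several kinds. Ppard, the gene of the nuclear receptor PPAR delta, was at 23.4 to 37.1 TPM (median 25.8) against 58.0 to 113 TPM (median 72.1), a difference of -1.44 ± 0.13. Thus the genes of 2 PPAR receptors moved apart, since Ppara was higher under DRF. Glul, glutamine synthetase, fell by 1.26 ± 0.12 from a median of 976 to 428 TPM, and Tfrc, the transferrin receptor for iron uptake, by 1.05 ± 0.10 from 66.7 to 34.3 TPM. Dleu7 fell by 1.02 ± 0.15, and so did Nat8f6, of the N-acetyltransferase 8 family, by 1.03 ± 0.18. Part of the reads of Nat8f6 is shared with Nat8f7 and Nat8f3.

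**Figure D2:**
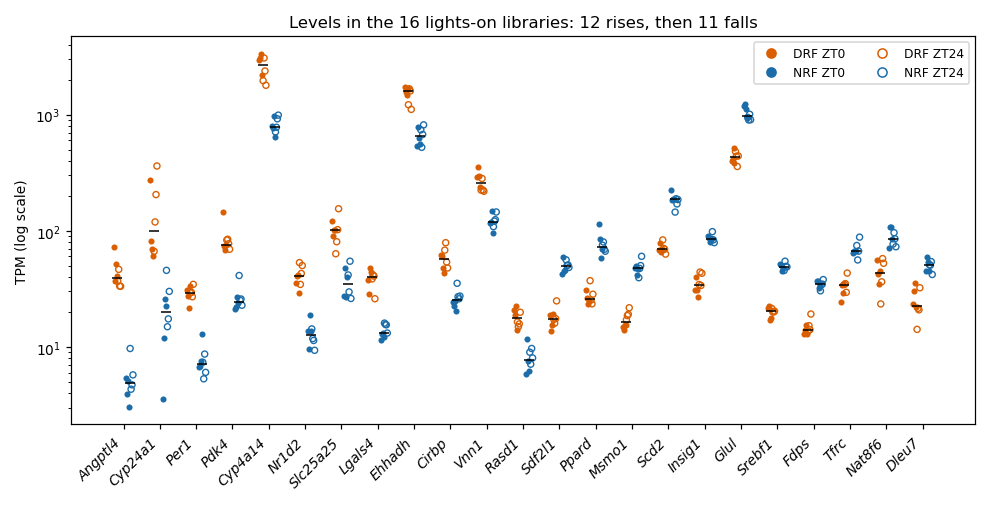
TPM on a log scale in each of the 16 lights-on libraries for the 12 largest rises and then 11 of the 12 largest falls under DRF, among called genes with a mean of at least 10 TPM and no overlap between regimens. Points are libraries (filled ZT0, open ZT24) and bars are medians of 8; the regimens separate for each gene because the choice required it, and Cyp24a1 has the widest spread, from 59.98 to 361 TPM under DRF.

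Fatty acid oxidation had the largest number of members called higher among the 15 gene lists. Of its 34 members tested, 21 were called higher and 0 lower, against 6.08% and 5.65% of all genes. The median difference was 0.53, against -0.003 over all genes tested. The libraries of 19 members did not overlap, called or not and higher under DRF, against 4.6% of all genes. The only uncalled regulator was Ppargc1a, a coactivator of PPARA, at 0.02 ± 0.08. Ppara itself lay at 125 to 205 TPM (median 146) against 83.0 to 111 TPM (median 91.4), a difference of 0.67 ± 0.11 (adjusted p 0.000972 and 0.00171).

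The carnitine shuttle, which carries long-chain fatty acids into mitochondria, moved at 3 successive steps. Cpt1a, at the outer membrane, was at 464 to 554 TPM against 225 to 293 TPM (0.94 ± 0.07). Slc25a20, the carnitine-acylcarnitine carrier, was at 52.8 to 73.9 TPM against 27.6 to 33.2 TPM (1.03 ± 0.06). Cpt2, at the inner membrane, was at 276 to 344 TPM against 154 to 212 TPM (0.75 ± 0.07). The regimens did not overlap at any of these steps, whereas the uptake genes Cd36 (-0.06 ± 0.15) and Fabp1 (0.14 ± 0.23) were not called. The plasma membrane carnitine transporter Slc22a5 was also higher, by 0.50 ± 0.09, with reads shared with Slc22a21.

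Within mitochondria, 7 of 9 members tested were called higher. Acadl and Acadvl, dehydrogenases of long-chain acyl-CoA, rose by 0.42 ± 0.05 and 0.40 ± 0.04, and Hadha, a subunit of the trifunctional protein, by 0.33 ± 0.04. Decr1, needed for unsaturated chains, rose by 0.57 ± 0.05. Acot2, a mitochondrial acyl-CoA thioesterase whose reads are shared with Acot1 and Acot3, rose by 0.998 ± 0.095. The medium-chain dehydrogenase Acadm, at 821 to 1571 against 672 to 1437 TPM, overlapped between regimens and was not called (0.31 ± 0.16; adjusted p 0.318 and 0.427).

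Of the 9 peroxisomal and microsomal members 5 were called higher. Cyp4a14, which hydroxylates fatty acids at the omega position, lay at 1789 to 3337 TPM (median 2658) against 638 to 990 TPM (median 788), a difference of 1.64 ± 0.13 (adjusted p 2.72e-10 and 1.36e-07). Ehhadh, the bifunctional enzyme of peroxisomal oxidation, lay at 1110 to 1737 TPM (median 1588) against 523 to 816 TPM (median 655), a difference of 1.196 ± 0.122. Cyp4a10 and Cyp4a31, near-identical genes whose reads are shared with each other and with Cyp4a32, rose by 0.98 ± 0.13 and 0.72 ± 0.10. On lipid droplets, Plin5 rose by 1.11 ± 0.13 from a median of 3.67 to 8.60 TPM.

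Genes of cholesterol and fatty acid synthesis moved the other way. None of 34 members tested was called higher and 18 were called lower, against 6.08% and 5.65% of all genes. The median difference was -0.53. For 15 members the regimens did not overlap, against 3.98% of all genes in that direction. Both SREBP genes fell: Srebf1, which favors fatty acid synthesis, lay at 17.1 to 22.5 TPM (median 20.2) against 44.7 to 54.6 TPM (median 49.1), a difference of -1.25 ± 0.10, and Srebf2, which favors cholesterol synthesis, fell by 0.48 ± 0.06. Insig1, which holds the SREBPs in the endoplasmic reticulum (ER) when sterol is plentiful, was at 26.8 to 44.1 TPM against 79.0 to 98.3 TPM, a difference of -1.27 ± 0.12.

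Along the cholesterol pathway 12 of 18 members fell. Msmo1 (C4-demethylation of sterols) was at 14.03 to 21.7 against 39.4 to 60.2 TPM (-1.44 ± 0.09), and Fdps (farnesyl diphosphate synthesis) at 12.9 to 19.2 against 30.4 to 37.9 TPM (-1.19 ± 0.08). Mvk and Mvd, early in the pathway, fell by 0.58 ± 0.08 and 0.65 ± 0.09, and Dhcr7, which acts at the end of it, by 0.80 ± 0.07.

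The fatty acid branch was called at 3 of 12 members, all desaturases, while all 12 had values below 0. Scd2 was at 62.9 to 83.3 TPM (median 69.4) against 145 to 224 TPM (median 186), a difference of -1.36 ± 0.11 with no overlap. Fads1 fell by 0.48 ± 0.08. Fads2 passed at -0.36 ± 0.08, but its call was lost without any 1 of 7 libraries (larger adjusted p 0.0546 to 0.104). These were DRF ZT0 replicate 3, DRF ZT24 replicates 1, 2 and 3, NRF ZT24 replicates 1 and 3 and the unnumbered NRF ZT24 library. Fasn, fatty acid synthase, gave -1.08 ± 0.46 and did not pass (adjusted p 0.264 and 0.245). Its level in NRF ZT0 replicate 1, the library with 773 TPM of adipose markers, was 187 TPM against 37.2 to 42.6 TPM in the other 3 of that group. The part of adipose RNA in that value was not tested.

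**Figure D3:**
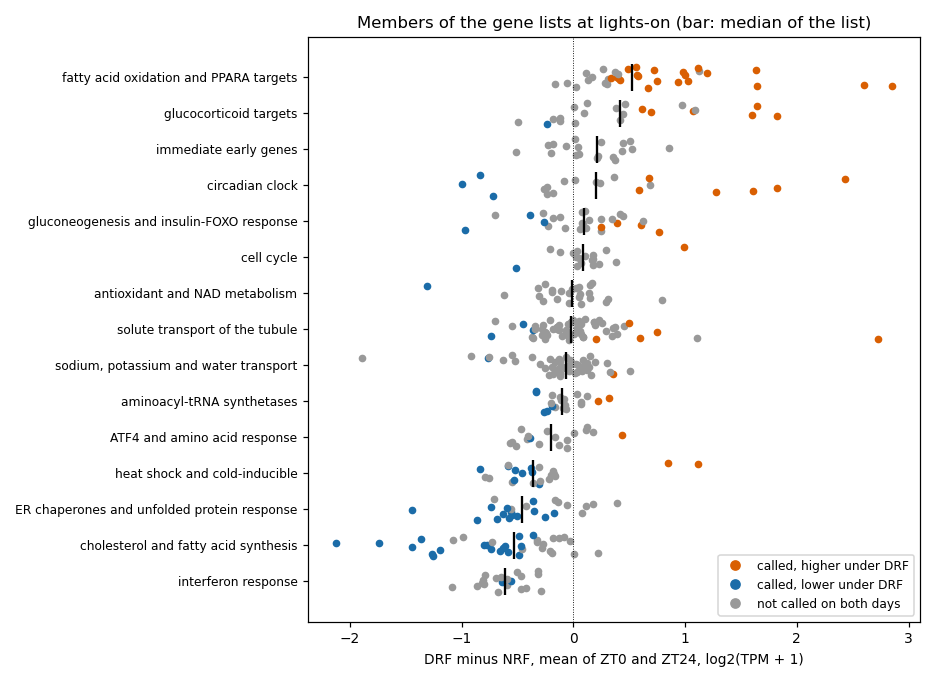
DRF minus NRF, mean of ZT0 and ZT24 in log2(TPM + 1), for each tested member of the 15 gene lists. Points are genes, colored where called on both days, and black bars are list medians; fatty acid oxidation (median 0.53) and cholesterol and fatty acid synthesis (median -0.53) lie on opposite sides of the all-gene median of -0.003.

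Protein-folding genes formed another group with lower levels under DRF. For chaperones of the ER and the unfolded protein response, 14 of 24 members tested were called lower and 0 higher. The shares over all genes were 5.65% and 6.08%. The list median was -0.46, and 13 of the 14 called members were among the 16 chaperones. Sdf2l1, a cofactor of the ER chaperone BiP, lay at 13.6 to 24.9 TPM (median 17.4) against 42.8 to 59.4 TPM (median 49.2), a difference of -1.45 ± 0.14 (adjusted p 3.44e-07 and 1.46e-06). Hspa5, BiP itself, was at 201 to 329 TPM (median 256) against 382 to 629 TPM (median 462), a difference of -0.86 ± 0.11, also with no overlap. Hyou1 and Hsp90b1, partners of BiP in folding, fell by 0.74 ± 0.09 and 0.69 ± 0.08, the disulfide isomerase Pdia6 by 0.63 ± 0.06 and the calcium-binding chaperone Calr by 0.57 ± 0.07. Of 8 sensors and quality control genes only Syvn1, an ER ubiquitin ligase, was called (-0.36 ± 0.06). Xbp1, the factor spliced in the unfolded protein response, was at -0.42 ± 0.08 and passed at ZT0 only (adjusted p 0.000171 and 0.0824), and Herpud1 had the opposite sign, 0.39 ± 0.10, passing at ZT24 only (0.383 and 0.00231).

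Promoters were searched for 5 motifs in all, each chosen to go with a list. The share of list members that hold a motif is therefore a description and no separate support. The ER stress response element (ERSE), written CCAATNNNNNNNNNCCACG with any base at N, was searched on both strands in the 250 bases before the start of each gene in RefSeq (GRCm38.p6), available for 10253 of 12782 genes. It was found in 18 genes (0.176%), of which 9 were members of the ER list (42.9% of its 21 members with a promoter). Of the 13 called members with a promoter, 8 (61.5%) held it. All but 1 of the 9, namely Hspa5, Hsp90b1, Pdia6, Creld2, Calr, Syvn1, Dnajc3 and Canx, were called lower, and they were the 8 of 581 genes called lower that held it (1.38%), and 0 of 621 genes called higher did. The other member was Derl3 (-0.71 ± 0.13), called at ZT24 but not at ZT0 (adjusted p 0.000193 and 0.0601). No gene outside the list that held the ERSE was called in either direction. For the other lists, the motif of PPARA (DR1, AGGTCA repeated after 1 base) was found in 0 of 15 called fatty acid oxidation genes and 4 of all 10253 (0.039%), the sterol regulatory element (SRE, in 1 exact spelling) in 0 of 11 called lipid synthesis genes and 8 of all (0.078%), and a heat shock element (HSE, GAA, TTC and GAA with 2 bases between) in 0 of 7 called heat shock and cold-inducible genes and 45 of all (0.439%). A match of letters is a description and not a site of binding, and no match says only that these letters are not in this window. The promoters of 4 genes are shown, those with the largest falls among the called members that held the element. It is in capitals (reversed in Creld2, and present on both strands in Hsp90b1).
Hspa5 (chr2:34771840-34772089, plus strand): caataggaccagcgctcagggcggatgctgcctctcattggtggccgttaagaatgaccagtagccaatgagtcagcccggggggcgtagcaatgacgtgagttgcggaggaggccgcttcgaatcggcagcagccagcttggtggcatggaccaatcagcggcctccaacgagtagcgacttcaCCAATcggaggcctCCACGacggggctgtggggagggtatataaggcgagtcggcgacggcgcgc
Hsp90b1 (chr10:86705445-86705694, minus strand): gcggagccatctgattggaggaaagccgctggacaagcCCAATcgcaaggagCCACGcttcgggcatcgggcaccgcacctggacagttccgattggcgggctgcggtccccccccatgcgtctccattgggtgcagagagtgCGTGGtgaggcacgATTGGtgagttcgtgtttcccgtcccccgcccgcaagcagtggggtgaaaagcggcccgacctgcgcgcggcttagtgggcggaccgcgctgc
Pdia6 (chr12:17266339-17266588, plus strand): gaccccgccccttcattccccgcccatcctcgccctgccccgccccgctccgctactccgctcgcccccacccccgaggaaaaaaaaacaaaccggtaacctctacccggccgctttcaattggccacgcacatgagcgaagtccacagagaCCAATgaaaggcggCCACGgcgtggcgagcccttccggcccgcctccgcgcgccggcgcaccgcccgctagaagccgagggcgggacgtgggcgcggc
Creld2 (chr15:88819396-88819645, plus strand): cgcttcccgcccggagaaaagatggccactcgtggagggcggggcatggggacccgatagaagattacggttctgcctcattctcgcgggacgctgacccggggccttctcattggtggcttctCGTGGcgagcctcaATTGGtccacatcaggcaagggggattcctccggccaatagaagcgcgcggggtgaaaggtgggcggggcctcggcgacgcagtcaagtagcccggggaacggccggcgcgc

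The heat shock genes were lower too, and the cold-inducible genes higher. Of 20 heat shock genes tested, 8 were called lower and 0 higher, against 5.65% and 6.08% of all genes. All 20 had values below 0. Chordc1, a co-chaperone of HSP90, lay at 13.7 to 19.0 TPM (median 15.7) against 26.5 to 35.3 TPM (median 29.3), a difference of -0.83 ± 0.07. Hsp90aa1, the inducible HSP90, fell by 0.53 ± 0.08 and its co-chaperones Fkbp4, Stip1 and Ahsa1 by 0.59 ± 0.06, 0.52 ± 0.05 and 0.38 ± 0.06. The HSP70 genes Hspa8 (-0.29 ± 0.10) and Hspa1a (-0.36 ± 0.23, with reads shared with Hspa1b and Hspa1l) were not called. The RNA-binding proteins Cirbp and Rbm3, which are induced by mild cooling, both rose: Cirbp was at 43.3 to 78.9 TPM (median 57.4) against 20.3 to 35.3 TPM (median 25.3), a difference of 1.11 ± 0.10, and Rbm3 at 74.4 to 103 against 42.6 to 54.5 TPM, a difference of 0.85 ± 0.07. Neither overlapped between regimens.

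The clock differed between regimens at lights-on, though not in all its genes. Of 19 genes, 6 were called higher and 3 lower under DRF, against 6.08% and 5.65% of all genes. All of the 6 belong to the REV-ERB and ROR genes, the repressors or the output factors that the clock drives. Dbp, an output factor with a large daily swing, lay at 7.21 to 37.7 TPM (median 14.5) against 1.06 to 3.02 TPM (median 2.02), a difference of 2.43 ± 0.23 (adjusted p 2e-05 and 1.33e-08). Its reads are shared with the neighboring gene Sphk2. Per1, a repressor that light, feeding and glucocorticoids can also induce, lay at 21.5 to 34.5 TPM (median 29.3) against 5.30 to 12.9 TPM (median 7.08), a difference of 1.82 ± 0.19 (adjusted p 1.61e-05 and 6.84e-07). Nr1d2, or REV-ERB beta, lay at 29.2 to 53.1 TPM (median 41.0) against 9.33 to 18.9 TPM (median 12.7), a difference of 1.61 ± 0.10. Each of these 3 was higher in all 8 DRF kidneys than in any NRF kidney. Nr1d1, or REV-ERB alpha, was at 27.9 to 78.9 against 12.4 to 37.7 TPM (1.27 ± 0.17), with overlap and with reads shared with Thra. Rora and the output factor Tef rose by 0.59 ± 0.06 and 0.68 ± 0.09.

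The clock genes called lower were Arntl, Nfil3 and Cry1. Arntl lay at 10.6 to 16.8 TPM (median 13.5) under DRF and at 21.2 to 23.7 TPM (median 23.1) under NRF, a difference of -0.72 ± 0.12, and Nfil3, which represses the same sites that Dbp activates, was at 23.9 to 38.9 against 53.3 to 62.3 TPM (-0.84 ± 0.14). Both were without overlap, but neither was called when the deposited values were taken as linear TPM. Cry1, the late repressor, was at 2.65 to 10.4 TPM (median 6.34) against 10.3 to 16.2 TPM (median 13.4), a difference of -0.99 ± 0.14. Its call was lost without DRF ZT24 replicate 4 (-0.82; larger adjusted p 0.0521). Per2 and Per3 did not follow Per1: Per2 gave -0.24 ± 0.12 and passed at ZT0 only (adjusted p 0.0231 and 0.892), and Per3 gave 0.68 ± 0.14 and passed at ZT24 only (0.183 and 0.000345). Clock (-0.24 ± 0.06) and Npas2 (-0.18 ± 0.12), the partners of BMAL1, were not called.

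CLOCK and BMAL1 bind the E-box CACGTG. These letters stood within 250 bases before the start in 1010 of 10253 genes (9.85%), in 5 of 16 clock genes with a promoter (31.2%), and in 3 of the 9 called ones, namely Per1, Tef and Cry1. Per1 rose and Cry1 fell, and their promoters are printed with the E-box in capitals to show that both hold it.
Per1 (chr11:69098699-69098948, plus strand): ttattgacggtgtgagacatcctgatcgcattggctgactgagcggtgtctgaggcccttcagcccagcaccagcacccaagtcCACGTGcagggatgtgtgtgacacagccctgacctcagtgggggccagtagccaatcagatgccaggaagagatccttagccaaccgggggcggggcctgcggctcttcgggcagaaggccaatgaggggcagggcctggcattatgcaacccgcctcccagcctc
Cry1 (chr10:85185055-85185304, minus strand): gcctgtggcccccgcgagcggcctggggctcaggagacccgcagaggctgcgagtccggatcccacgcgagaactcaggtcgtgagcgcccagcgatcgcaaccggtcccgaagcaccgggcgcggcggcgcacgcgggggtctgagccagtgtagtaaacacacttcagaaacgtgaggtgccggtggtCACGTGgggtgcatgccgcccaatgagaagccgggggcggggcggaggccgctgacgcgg

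In glucose metabolism, 2 enzymes of gluconeogenesis moved in opposite directions. Pck1, which makes phosphoenolpyruvate from oxaloacetate, lay at 5768 to 8336 TPM (median 6925) under DRF and 2608 to 4932 TPM (median 4303) under NRF, a difference of 0.77 ± 0.17 (adjusted p 0.025 and 0.00912) with no overlap. G6pc, which releases free glucose at the last step, lay at 464 to 941 TPM (median 753) against 1089 to 1637 TPM (median 1416), a difference of -0.97 ± 0.16 (adjusted p 0.00468 and 0.000625), also with no overlap. The call of Pck1 was lost without any 1 of 4 libraries (DRF ZT0 replicates 1 and 2, NRF ZT0 replicate 4 and the unnumbered NRF ZT24 library; larger adjusted p 0.0613 to 0.0896), and that of G6pc in no such case. Over the 26 members tested of the list of gluconeogenesis and the insulin and FOXO response, 4 were called higher and 3 lower. The shares over all genes were 6.08% and 5.65%, and the list median was 0.09. The insulin receptor gene Insr was at 33.6 to 41.9 against 28.03 to 33.1 TPM (0.25 ± 0.04), and was not called without DRF ZT0 replicate 2 (0.22; larger adjusted p 0.096). Cited2, a transcriptional coregulator, fell by 0.39 ± 0.06, and Igfbp1, a FOXO target secreted in fasting, gave 0.62 ± 0.16 and passed at ZT24 only (adjusted p 0.0902 and 0.0262).

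Glucocorticoid targets were called higher in 6 of 17 tested and lower in 0, against 6.08% and 5.65% of all genes. The median of the whole list of 21 was 0.42. Per1 and Pdk4, given above, are 2 of the 6. Zbtb16 is another, but its call was lost without any 1 of 7 libraries (larger adjusted p 0.0575 to 0.166). The receptor gene Nr3c1 was called lower, and its call was lost without any 1 of 6 libraries (0.0544 to 0.171). Klf9, a Kruppel-like factor, was at 137 to 168 TPM (median 146) against 79.4 to 103 TPM (median 92.7), a difference of 0.69 ± 0.07 (adjusted p 1.53e-05 and 3.54e-08), and Errfi1, an inhibitor of the EGF receptor, rose by 0.61 ± 0.12, both without overlap. Metallothionein Mt1 rose by 1.07 ± 0.16, but its call was lost without DRF ZT24 replicate 1, DRF ZT24 replicate 2 or the unnumbered NRF ZT24 library (larger adjusted p 0.0872 to 0.11). Of the 17 targets tested, 15 had values above 0 and 2 below, against 6294 and 6488 of all 12782 genes. Those below 0, Tsc22d3 (-0.18 ± 0.13) and Sgk1 (-0.12 ± 0.23), were not called, nor was Fkbp5 (0.42 ± 0.20).

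In a list of solute transport and its hormones, which holds genes of the proximal and the distal tubule and the collecting duct, the largest difference was in vitamin D metabolism. Cyp24a1, the enzyme that inactivates vitamin D, lay at 59.98 to 361 TPM (median 100) under DRF and at 3.59 to 45.6 TPM (median 20.04) under NRF. Even the lowest DRF library was above the highest NRF one, and the difference was 2.72 ± 0.41 (adjusted p 0.000314 and 0.000986), or 6.61-fold. Vdr, the vitamin D receptor, lay at 235 to 416 TPM (median 276) against 162 to 219 TPM (median 187), a difference of 0.59 ± 0.09, again with no overlap. Cyp27b1, which makes the active hormone, gave 1.10 ± 0.31 and passed at ZT24 only (adjusted p 0.136 and 0.029). The phosphate carrier Slc34a1, at 2282 to 3915 against 2787 to 3889 TPM, did not pass (-0.04 ± 0.13).

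For solute transport as a whole, 5 of 63 members tested were called higher and 3 lower, close to the shares over all genes, with a median of -0.02. Slc5a1, the glucose cotransporter SGLT1, was lower by 0.36 ± 0.06 (82.3 to 104 against 104 to 134 TPM). In sodium, potassium and water transport, 1 of 50 was called higher and 1 lower (2 of 50 against 11.7% of all genes). These were Nedd4l, the ubiquitin ligase that removes sodium channels from the membrane (0.36 ± 0.06), and Avpr2, the vasopressin receptor of the collecting duct, at 20.1 to 25.5 TPM (median 23.7) against 32.9 to 54.9 TPM (median 40.1), a difference of -0.77 ± 0.13. Aqp2, the water channel that vasopressin regulates, was at 149 to 376 against 234 to 623 TPM and did not pass (-0.52 ± 0.25), and the urea transporter Slc14a2 ranged from 0.122 to 172 against 50.4 to 310 TPM (-1.89 ± 1.16). Avpr2 is also a collecting duct marker, Slc14a2 a medullary marker and Aqp2 both; these sums are given above, and their part in these values was not tested. The sodium transporters Slc12a3 (0.07 ± 0.11), Slc9a3 (0.12 ± 0.06) and Scnn1a (-0.12 ± 0.07) were not called.

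The remaining lists, apart from the aminoacyl-tRNA synthetases, had calls near or below the 11.7% of all genes tested. Interferon response genes had values below 0 in all 20 members, with a median of -0.61 over both days (-1.01 at ZT0 and -0.29 at ZT24), but only 2 were called. Of these, the antiviral gene Rsad2 was at 28.8 to 45.2 against 45.8 to 66.2 TPM (-0.56 ± 0.07). Isg15 was at 9.11 to 36.1 against 18.1 to 91.1 TPM (-1.09 ± 0.20; adjusted p 7.65e-05 and 0.149), and was called without DRF ZT24 replicate 3, at -1.21. In some members the NRF groups themselves differed between ZT0 and ZT24. Irf7 lay at 68.4 to 90.3 TPM in NRF ZT0 and at 14.2 to 20.5 TPM in NRF ZT24. Under DRF it lay at 14.4 to 62.4 TPM at ZT0 and 12.4 to 25.1 TPM at ZT24. Summed immune cell markers were 741 to 1280 TPM under DRF and 678 to 982 TPM under NRF.

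Aminoacyl-tRNA synthetases, which charge tRNAs for translation, were called lower in 5 of 20 and higher in 2, all by less than 1.5-fold. The shares over all genes were 5.65% and 6.08%. Wars (-0.34 ± 0.05) had the largest fall and Qars the largest rise (0.32 ± 0.03). Without the 2 libraries that correlated least with the rest, 2 in place of 5 were called lower, and Wars was not among them. Immediate early genes were called in 0 of 19, and Fos gave 0.37 ± 0.17 (adjusted p 0.0414 and 0.909). In the ATF4 and amino acid response 1 of 18 was higher and 1 lower, with a median of -0.20. The cell cycle list likewise had 1 and 1 of 18, with a median of 0.09. Both lay close to the shares over all genes. For antioxidant and NAD metabolism, 0 of 25 were higher and 1 lower: Acmsd, which diverts tryptophan breakdown from NAD synthesis, was at 60.7 to 259 TPM (median 91.8) against 191 to 292 TPM (median 243), a difference of -1.31 ± 0.19. Its DRF ZT24 replicate 4 value, 259 TPM, lay within the NRF range, and the other 3 of that group were at 60.7 to 83.1 TPM.

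Lights-on was then set against the other clock times, with a limma test of the difference between effects for ZT4, ZT12 and ZT20. Over all genes tested the lights-on effect was above that at ZT4 in 2537 genes (19.8%) and below it in 2861 (22.4%), and against ZT12 in 2479 (19.4%) and 2810 (22%). Against ZT20, it was above in 17 (0.133%) and below in 2 (0.0156%). Among the 1499 genes called at lights-on, 1402 differed from ZT4, 1300 of them with the opposite sign there, and 1464 differed from ZT12, 1425 with the opposite sign. The lights-on values behind the calls also enter these contrasts, so the shares are a description. At ZT20, a separate set of libraries, 1069 of the 1499 were called in the same direction and 1 in the opposite one, where 1266 (9.9%) and 1495 (11.7%) of all genes were called higher and lower.

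The opposite sign at ZT4 and ZT12 was plain in the named genes. Angptl4 averaged 50.3 ± 15.7 TPM (SD, n = 4) at ZT0 under DRF and 4.38 ± 1.10 under NRF, while at ZT4 it was at 7.79 ± 1.61 under DRF and 36.3 ± 30.2 under NRF. Its lights-on effect exceeded that at ZT4 by 4.54 ± 0.50 and that at ZT12 by 4.02 ± 0.50. Cyp24a1 exceeded its effects at ZT4 and ZT12 by 3.72 ± 0.71 and 3.56 ± 0.71. In the other direction, Sdf2l1 at ZT12 was at 32.8 ± 9.80 TPM under DRF and 10.4 ± 1.70 under NRF, whereas at ZT0 it was at 16.7 ± 2.62 and 48.3 ± 7.51. It was below its effects at ZT4 and ZT12 by -2.97 ± 0.24 and -2.98 ± 0.24, Msmo1 below that at ZT4 by -3.01 ± 0.16, Nat8f6 by -3.63 ± 0.32, and Scd2 below that at ZT12 by -2.59 ± 0.19. All of these contrasts passed after adjustment (largest adjusted p 6.89e-05, that of Cyp24a1 at ZT12).

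**Figure D4:**
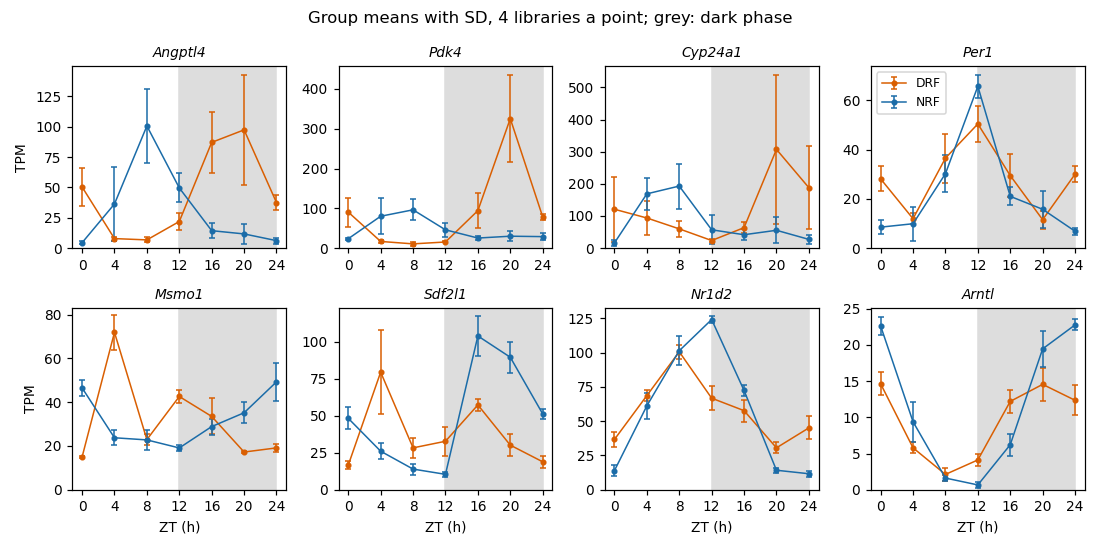
Group means of TPM with SD (error bars, 4 libraries a point) for 8 genes over ZT0 to ZT24 under DRF and NRF, with the dark phase in grey. The means of the regimens lie apart at both ends of each panel, ZT0 and ZT24, with overlapping error bars for Cyp24a1, and for Angptl4, Pdk4, Msmo1 and Sdf2l1 the order is turned at ZT4 and ZT12.

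Only 14 of the 1499 genes differed from ZT20, and the clock was among them. Per1 was at 28.1 ± 5.09 (ZT0) and 30.03 ± 3.20 TPM (ZT24) under DRF against 8.498 ± 2.97 and 6.84 ± 1.49 under NRF, but at ZT20 the order was 11.5 ± 3.65 against 15.8 ± 7.58. Its lights-on effect exceeded that at ZT20 by 2.17 ± 0.33 (adjusted p 0.000674). Tef (0.85 ± 0.16; adjusted p 0.00693) and Klf9 (0.66 ± 0.12; adjusted p 0.00365) were higher under DRF at lights-on and close to 0 at ZT20 (-0.17 and 0.03). Pdk4 went the other way, since its effect at ZT20 was larger: 325 ± 110 against 29.8 ± 12.3 TPM at ZT20, with the lights-on effect below it by -1.78 ± 0.39 (adjusted p 0.0298). Cited2 was lower under DRF at lights-on and at 0.14 at ZT20, a contrast of -0.53 ± 0.10 (adjusted p 0.00973), and Creld2 fell less at lights-on than at ZT20, by 0.79 ± 0.18 (adjusted p 0.0489).

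**Figure D5:**
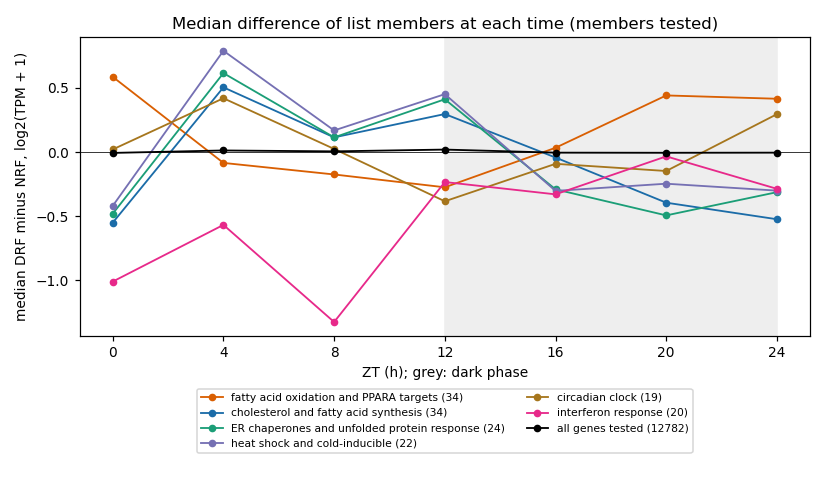
Median DRF minus NRF difference, in log2(TPM + 1), over the tested members of 6 gene lists and over all genes, at each of the 7 times. At ZT0, ZT20 and ZT24 the medians of fatty acid oxidation are above 0 (0.59, 0.44 and 0.42) and those of lipid synthesis and ER chaperones below it. At ZT4 and ZT12 the signs are turned, but at ZT4 fatty acid oxidation is near 0 (-0.084, against 0.013 over all genes).

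By list, the medians of fatty acid oxidation, lipid synthesis, ER chaperones and heat shock genes turned between lights-on and the light phase. Other lists turned too: the aminoacyl-tRNA synthetases went from -0.11 at ZT0 and -0.10 at ZT24 to 0.15 at ZT4. The glucocorticoid list went from 0.39 and 0.38 to -0.085 at ZT4. Some lists did not turn in this way. Interferon response genes stayed below 0 at -0.57 at ZT4 and -1.32 at ZT8, and the clock genes were at 0.02 at ZT0, 0.30 at ZT24, 0.42 at ZT4 and -0.38 at ZT12. Fatty acid oxidation was at 0.59 at ZT0 and 0.42 at ZT24. It was at -0.08 at ZT4, against 0.013 over all genes, and at -0.27 at ZT12. Its lights-on effect was above that at ZT12 in 27 of 34 members and below in 0. Over all genes these shares were 19.4% and 22%. Over all genes, 22.4% were below their ZT4 effect at lights-on and 19.8% above it. Lipid synthesis was at -0.55 and -0.52 at lights-on and at 0.51 at ZT4, with 23 of 34 members below their ZT4 effect. ER chaperones were at -0.48 and -0.31 and reached 0.62 at ZT4, with 20 of 24 below their ZT4 effect, and heat shock and cold-inducible genes were at -0.42 and -0.30 and reached 0.79 at ZT4, with 19 of 22 below and 2, Cirbp and Rbm3, above. Against ZT20 the effect differed in 0 of the 34 lipid synthesis genes and 1 of the 34 fatty acid oxidation genes (Pdk4). It differed in 1 of the 24 ER genes (Creld2) and 3 of the 19 clock genes (Per1, Per2 and Tef). Over all genes it was above that at ZT20 in 0.133% and below in 0.0156%. A count of 0 or 1 is thus no trait of a list.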

How the data were processed

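Poly(A) RNA of kidney from 56 libraries, 4 in each of 14 groups of regimen and time, was sequenced as paired reads on BGISEQ-500. Per the labels, the authors' processing named HISAT2, Bowtie2 and RSEM with mm10 and GRCm38.p6. The deposited score, called TPM by the authors, behaved as a scaled log2 of CPM plus 1, divided by gene length, and not as linear TPM. Whole reads and linear TPM were recovered from it with GENCODE M21 exon lengths, with a length found by search, or as a whole sum with a nearby gene, whose reads are then shared. Reads came out whole within 0.1 for 99.28% of values in genes with a settled length, and 15828 of 17027 genes were recovered. Among the genes tested, 648 have a searched length and 753 share reads, and lengths from the annotation failed most often on chromosomes 17, 18 and 19. The lights-on libraries held 23.52 to 25.27 M recovered reads (M, mega), with an effective size of 25.41 to 28.11 M and 581 to 801 genes at 0.

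Genes with a mean of at least 1 TPM over the 56 libraries (12782) were fitted with limma 3.58.1 (R 4.3.3, mean-variance trend) on log2(TPM + 1), with 1 coefficient per group. P-values were adjusted by Benjamini-Hochberg over all genes. Groups came from the labels for regimen and time. Libraries with replicate numbers are not stated to come from separate animals, so p-values measure the spread between libraries. No 2 libraries of a group agreed within sampling noise (chi-square per gene of at least 7.34). Genes were named by rule: the 12 largest rises and falls with a mean of at least 10 TPM and no overlap, up to 4 called members per role of each list, further list members whether or not called, and the 3 largest contrasts with ZT4, ZT12 and ZT20 in each direction. A few genes that this rule names are not reported here. The members and the lists were chosen with earlier results of these data known. Entrez identifiers were matched to symbols and promoters in RefSeq tables (16929 of 17027). Listed genes that were not matched in the table, such as Idi1, Ren1 and Sult1a1, were not analysed here. Alternatives covered scaling, pseudocount (0.1), filters (none, 5 TPM), samples in the fit, limma-voom, a replicate block, call rules and each library left out. The scripts were tested on simulated data.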

Additional observations from a re-analysis of the deposited data

Results flagged for a closer look

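Single libraries were flagged in the lights-on groups of 4 by Dixon's test of a gap against the range. It was applied 412 times, to each named gene in 4 groups. Chance alone flags about 1 in 20 groups, and the flagged values, all given here, are close to that share. In DRF ZT24 replicate 4, Acmsd was at 259 TPM (60.7 to 83.1 in the other 3), Vdr at 416, Fads1 at 160, Plk3 at 23.1, Slc16a10 at 49.5 and Wars at 42.8 TPM, and Slc14a2 at 0.122 TPM. The medullary markers of that library summed to 326 TPM, the lowest of the 16, and the part of this in its values was not tested. In NRF ZT0 replicate 1, the library with the highest adipose marker sum, Fasn was at 187 TPM and Scd2 at 224 TPM, and Nedd4l at 26.2 TPM. In DRF ZT0 replicate 1, Cyp24a1 was at 272 TPM (59.98 to 81.8 in the other 3) and Pdk4 at 144 TPM (67.7 to 74.7). In NRF ZT24 replicate 1, Pdk4 was at 41.1, Hspa5 at 498 and Cirbp at 35.3 TPM. Clock genes were flagged in 3 libraries. These were Per1 at 12.9 TPM in NRF ZT0 replicate 4, Tef at 52.1 TPM in DRF ZT0 replicate 4 and Nr1d1 at 78.9 TPM in DRF ZT24 replicate 2. Sgk1 was at 89.2 TPM in DRF ZT0 replicate 4, Fos at 5.69 TPM in DRF ZT0 replicate 3, Vnn1 at 282 TPM in DRF ZT24 replicate 2, Slc22a5 at 296 TPM and Srebf2 at 41.8 TPM in DRF ZT24 replicate 3, and Vdr at 219 TPM in the unnumbered NRF ZT24 library.

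The regimen effect differed between clock times by the limma contrast. Of the genes called at lights-on, 1402 differed from ZT4, 1464 from ZT12 and 14 from ZT20. Among those with a mean of at least 10 TPM, the largest differences of the lights-on effect from ZT4 were those of Angptl4 (4.54), Cyp24a1 (3.72), Pdk4 (3.67), Nat8f6 (-3.63), Msmo1 (-3.01) and Sdf2l1 (-2.97), all on the log2 scale. Against ZT12, large ones were those of Angptl4 (4.02), Cyp24a1 (3.56), Sdf2l1 (-2.98) and Scd2 (-2.59). Against ZT20 they were those of Per1 (2.17), Tef (0.85), Creld2 (0.79), Pdk4 (-1.78) and Cited2 (-0.53).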

How the results depend on the processing

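The called genes depended most on the call rule. With an adjusted p for the mean of both days in place of 1 for each day, and the same sign on both, 4512 genes passed, 2222 higher and 2290 lower under DRF, and the members called were 10 for glucocorticoid targets (higher), 15 for heat shock genes (lower), 12 for aminoacyl-tRNA synthetases (lower) and 11 for solute transport (higher). With a minimum of 1.5-fold, 236 genes passed, 137 higher and 99 lower, and the lists held 13 for fatty acid oxidation, 2 for heat shock, 6 for ER chaperones, 0 for the synthetases and 3 for solute transport. With each library scaled to the same sum of TPM, an alternative chosen after seeing the data, 516 genes were higher under DRF (41.9% of those called, against 51.8%). The contrast with ZT20 gave 10 genes with the deposited values taken as linear TPM, 11 with that scaling and 11 without the 2 libraries that correlated least with the rest (also chosen after seeing the data), in place of 19. Without those 2 libraries 2 synthetases were lower. Leaving out each library in turn gave 1246 to 1524 genes called, 642 to 773 higher and 588 to 751 lower. By list this gave 6 to 6 clock genes higher, 19 to 22 for fatty acid oxidation, 17 to 18 for lipid synthesis (lower), 5 to 7 for glucocorticoid targets, 7 to 8 for heat shock, 11 to 15 for ER chaperones, 4 to 6 for the synthetases and 4 to 5 for solute transport. The contrasts gave 5224 to 5420 genes for ZT4, 5118 to 5369 for ZT12 and 14 to 26 for ZT20 (14 without NRF ZT24 replicate 2, 26 without DRF ZT24 replicate 1), and 0 for ZT24 against ZT0. Of 2677 values of 103 named genes under 26 alternatives, 2549 kept call and direction, 125 lost the call, 3 gained it and 0 changed direction. The causes were not tested. The replicate numbers were not taken to pair the libraries, since not every pair had r above 0.1: same-numbered DRF and NRF libraries deviated together with r of 0.374, 0.202, 0.08 and 0.384 at ZT0 and 0.054, 0.282 and -0.19 at ZT24, and for 3 of these 7 another number gave a higher r. With a replicate block, and without the unnumbered NRF ZT24 library, 1291 genes were called, 1257 of them among the 1499. Of the named genes Xbp1 gained the call (-0.457, larger adjusted p 0.0368), and Nr3c1, Pck1, Pik3r1, Plk3, Slc38a3 and Zbtb16 lost it (0.052 to 0.0815). Groups of 4 and the spread between libraries limit small differences, and genes near 1 TPM are compressed by the pseudocount.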
